A study of Mus musculus with 6 samples.

Results

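The enzymes of de novo purine and pyrimidine synthesis described here are the products of 10 mouse genes, Ppat, Gart, Pfas, Paics, Adsl, Atic, Impdh2, Cad, Dhodh and Umps. They were picked by gene symbol, 10 of the 54532 genes in the deposited count table, and all 10 were abundant enough to be tested. RNA was sequenced from naive CD4+ T cells of C57BL/6 spleen that had been cultured for 72 h. The NETs group (3 libraries) received neutrophil extracellular traps, the meshes of chromatin and granule contents that neutrophils cast out, and the vehicle group (3 libraries) received vehicle. Both groups had beads against CD3 and CD28, IL-2, and antibodies that block IFN-gamma and IL-4, a mix in which the beads stimulate the T cells of either group. The labels give neither source nor dose of the NETs. They also do not say whether the replicates are separate mice or cultures, so the spread behind the p-values is that between these libraries and may be technical.

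Purines are built step by step on a ribose phosphate until inosine monophosphate (IMP) is formed, from which AMP and GMP are made. Pyrimidines are built as a ring first and joined to ribose phosphate afterwards. Resting T cells live largely on recycled nucleotides, and activated T cells switch on both de novo routes to supply RNA and DNA synthesis, with Myc and mTOR as known drivers.

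Libraries held 15657622 to 18655997 reads counted in genes. All 7 T cell markers were detected, at a summed 3381 to 3631 CPM (counts scaled to the same library total) in NETs libraries and 3413 to 3900 CPM in vehicle libraries. In bulk RNA, fewer cells of a type and less RNA per cell cannot be told apart. Summed markers stood at 13 to 19.5 CPM with NETs and 18.4 to 20.8 CPM with vehicle for CD8 T cells, at 12.4 to 18.9 and 14.8 to 17.2 CPM for B cells, and at 39.6 to 52.1 and 30.2 to 41.1 CPM for macrophages, monocytes and dendritic cells. Most of the last sum was Lyz2, which averaged 36.0 CPM with NETs and 23.5 CPM with vehicle. In the same list Adgre1, Cd68 and Csf1r averaged higher with NETs, and Itgam and Itgax lower. The 8 neutrophil markers summed to 3.90 to 4.94 CPM with NETs and 1.55 to 2.74 CPM with vehicle. S100a9 had 16, 24 and 20 reads in NETs libraries and 0 reads in each vehicle library, and Ly6g had 0 in all libraries. Mpo averaged 2.03 CPM with NETs and 1.62 CPM with vehicle, with overlapping groups. S100a8, Elane, Ngp and Camp averaged higher with NETs, and Ltf lower (0.36 against 0.45 CPM). NK cell markers (0.233 to 0.931 CPM with NETs, 0.320 to 0.684 CPM with vehicle) and erythroid markers (0.641 to 2.62 CPM with NETs, 0.575 to 1.31 CPM with vehicle) were near 0.

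The upstream sequences of the 3 genes with the smallest p-values, Gart, Adsl and Atic, are shown to place these genes beside motifs often found at promoters of growth genes. Each run is the 250 bases before the RefSeq start (build GRCm38.p6), read 5′ to 3′ on the strand of the gene, with the motifs CACGTG (the E-box that Myc and its relatives recognise) and CCAAT (bound by NF-Y) in capitals. The windows are chr16:91646973-91647222 on the minus strand for Gart, chr15:80948240-80948489 on the plus strand for Adsl and chr1:71556906-71557155 on the plus strand for Atic.
Gart: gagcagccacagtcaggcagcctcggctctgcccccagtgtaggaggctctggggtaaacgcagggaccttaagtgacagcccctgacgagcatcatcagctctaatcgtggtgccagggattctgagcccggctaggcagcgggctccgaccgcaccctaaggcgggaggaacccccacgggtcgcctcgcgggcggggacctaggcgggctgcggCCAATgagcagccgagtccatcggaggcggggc
Adsl: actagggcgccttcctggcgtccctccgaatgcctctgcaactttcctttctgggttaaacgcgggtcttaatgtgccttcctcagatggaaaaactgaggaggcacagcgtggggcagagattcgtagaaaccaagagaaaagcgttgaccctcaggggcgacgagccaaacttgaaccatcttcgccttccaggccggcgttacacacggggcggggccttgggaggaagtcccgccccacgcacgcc
Atic: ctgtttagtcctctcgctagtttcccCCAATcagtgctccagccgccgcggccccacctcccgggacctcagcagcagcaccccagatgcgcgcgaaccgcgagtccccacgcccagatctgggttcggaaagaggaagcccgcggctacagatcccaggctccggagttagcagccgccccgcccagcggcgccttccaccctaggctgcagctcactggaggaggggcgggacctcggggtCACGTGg

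Atic had an E-box that began 7 bases before its RefSeq start, and Gart had a CCAAT that began 33 bases before its RefSeq start. The deposited coordinates start Atic at 71557150, so that its E-box (71557149 to 71557154) lies across that start. The Adsl window had neither motif. An E-box also began 203 bases before the RefSeq start of Paics and 110 bases before that of Impdh2. The RefSeq start of Impdh2 lies downstream of the start in the deposited coordinates, by which this E-box is inside the gene. The Paics E-box lies before Paics but inside Ppat by the deposited coordinates. Both sites are shown here in capitals with their flanks (chr5:76951087-76951116 and chr9:108560314-108560343, both on the plus strand) because these are the 2 most abundant of the enzyme transcripts.
Paics: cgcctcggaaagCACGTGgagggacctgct
Impdh2: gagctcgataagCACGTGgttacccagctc
RefSeq windows, which run from 250 bases before to 50 after the start, were matched for 8 of the 10 genes, all but Pfas and Dhodh. On either strand, CACGTG occurred in 3 of the 8 (Atic, Impdh2 and Paics), against 7.15% of 32851 windows of all genes. CCAAT occurred in 4 of the 8 (Atic, Gart, Impdh2 and Paics), against 37.4% of all windows, and CCGGAAG, the core recognised by ETS factors, in 2 of the 8 (Gart and Ppat), against 8.86%. A match describes the letters of a window and is not evidence of binding.

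Transcript levels of all 10 enzymes averaged higher in NETs libraries than in vehicle libraries, by 1.07-fold for Paics to 1.41-fold for Gart, but the libraries of the 2 groups overlapped for 9 of them. None passed the test. With edgeR (quasi-likelihood test, Benjamini-Hochberg adjustment over 13900 genes), 0 of the 10 had an adjusted p under 0.05 (background 0.0% of genes higher and 0.0% lower), and their adjusted p ranged from 0.226 to 0.652. DESeq2 and limma-voom also called 0 of the 10, against 121 and 1 of all 13900 genes tested. At an unadjusted p under 0.05, 4 of the 10 were higher (Gart, Adsl, Atic and Ppat), against 6.72% of all genes tested, and 0 were lower, against 6.06%. The count of higher enzymes was 3 with DESeq2, against 865 of 13900 genes tested. In edgeR it was 1 without vehicle replicate 2, against 575 of 14384 genes tested. Without vehicle replicate 3 it was 7, against 1578 of 14391 genes tested. All 10 had a log2 fold change (NETs over vehicle) above 0, against 50.2% of genes tested, with a median of 0.27 beside a median of 0.00118 over all genes tested. Since all 10 transcripts were lowest in the same library, as given below, they do not count as 10 separate observations.

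**Figure D1:**
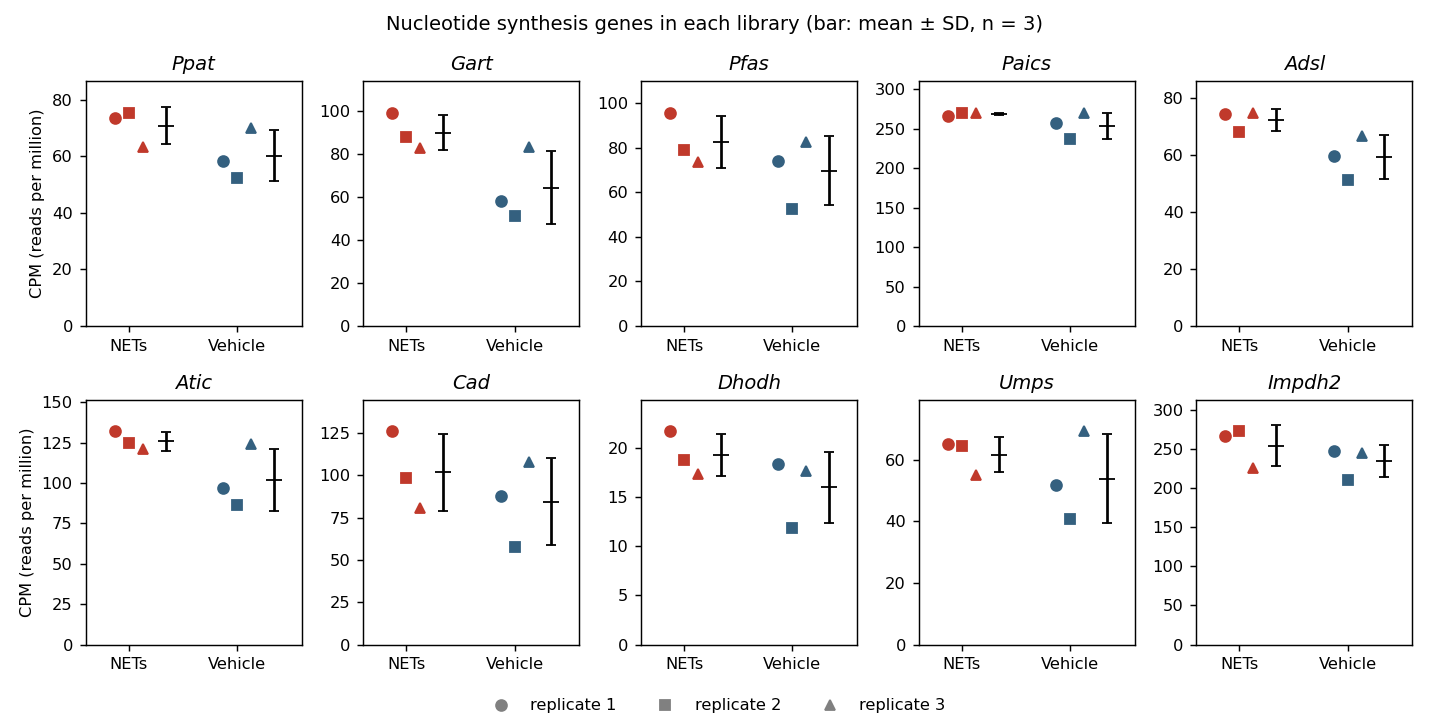
CPM of each gene (vertical axis from 0) in the 3 NETs libraries and the 3 vehicle libraries, with marker shape for the replicate number and a bar for the mean ± SD. Vehicle replicate 2 (square) was the lowest library for all 10 genes, and vehicle replicate 3 (triangle) lay among the NETs libraries for most of them.

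The purine route to IMP starts with Ppat, the amidotransferase that commits ribose phosphate to purines (chromosome 5, 76913249 to 76951578). Ppat had 73.7, 75.3 and 63.3 CPM in NETs replicates 1 to 3, against 58.4, 52.2 and 70.0 CPM in vehicle replicates 1 to 3. Vehicle replicate 3 lay above NETs replicate 3, so the groups overlapped, and the log2 fold change was 0.24 (SE 0.11, adjusted p = 0.388). Gart, a trifunctional enzyme of the early steps (chromosome 16, 91621186 to 91646952), had 99.1, 88.0 and 82.9 CPM with NETs, against 58.3, 51.2 and 83.3 CPM with vehicle. Vehicle replicates 1 and 2 lay well below the NETs libraries, whereas vehicle replicate 3 lay at the level of NETs replicate 3. The difference was the largest of the 10, with a log2 fold change of 0.50 (SE 0.15, 95% interval 0.18 to 0.82, adjusted p = 0.226).

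Pfas, the amidotransferase that makes formylglycinamidine ribotide (chromosome 11, 68985697 to 69008460), had 95.6, 78.8 and 73.4 CPM with NETs and 74.0, 52.3 and 82.4 CPM with vehicle. The groups overlapped, since vehicle replicate 3 exceeded NETs replicates 2 and 3 (log2 fold change 0.26, SE 0.15, adjusted p = 0.475). Paics, a bifunctional carboxylase and synthetase (chromosome 5, 76951307 to 76967509), had 267, 270.0 and 270.2 CPM with NETs and 257, 237 and 269.8 CPM with vehicle. Its NETs libraries were nearly identical, with a coefficient of variation of 0.616%, and its log2 fold change was the smallest of the 10, 0.09 (SE 0.08, 95% interval −0.07 to 0.26, adjusted p = 0.644).

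Adsl, the lyase that acts both before IMP and again on the way to AMP (chromosome 15, 80948490 to 80970946), had 74.5, 68.0 and 74.8 CPM with NETs, against 59.8, 51.4 and 66.6 CPM with vehicle. It was the only gene of the 10 whose NETs libraries all lay above its vehicle libraries, against 7.68% of genes tested, while 0 of the 10 had all NETs libraries below all vehicle libraries, against 9.04%. The gap between NETs replicate 2 and vehicle replicate 3 was small (log2 fold change 0.30, SE 0.11, adjusted p = 0.271). Atic, which closes the ring to form IMP (chromosome 1, 71557150 to 71579631), had 132, 125 and 121 CPM with NETs, against 97.2, 86.2 and 124 CPM with vehicle. Vehicle replicate 3 again lay among the NETs libraries (log2 fold change 0.31, SE 0.11, adjusted p = 0.277). Beyond IMP, Impdh2, the rate-limiting dehydrogenase of GMP synthesis (chromosome 9, 108560286 to 108565584), had 267, 273 and 226 CPM with NETs and 248, 211 and 245 CPM with vehicle. NETs replicate 3 lay below vehicle replicates 1 and 3, and the log2 fold change was 0.13 (SE 0.09, adjusted p = 0.553).

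In the pyrimidine route, Cad, the trifunctional protein that makes the ring precursor dihydroorotate (chromosome 5, 31054780 to 31078479), had 126, 98.4 and 80.8 CPM with NETs and 87.7, 57.4 and 108 CPM with vehicle. It varied most within groups, with a coefficient of variation of 22.5% with NETs and 30.4% with vehicle, and the 95% interval of its log2 fold change of 0.28 ran from −0.26 to 0.82 (SE 0.23, adjusted p = 0.652). Dhodh, which oxidises dihydroorotate in the inner mitochondrial membrane (chromosome 8, 109591343 to 109608673), was the scarcest, with 21.7, 18.8 and 17.4 CPM with NETs and 18.4, 11.9 and 17.7 CPM with vehicle. Vehicle replicate 2 alone stood apart (log2 fold change 0.28, SE 0.17, adjusted p = 0.516). Umps, which joins orotate to ribose phosphate and makes UMP (chromosome 16, 33954782 to 33967038), had 65.2, 64.6 and 55.0 CPM with NETs and 51.9, 40.7 and 69.2 CPM with vehicle. The highest Umps value of all was in vehicle replicate 3 (log2 fold change 0.21, SE 0.15, adjusted p = 0.591).

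The libraries that stood highest differed between the genes, whereas the lowest was shared. Averaged over the genes, log2 CPM relative to each gene's mean was 0.26, 0.13 and 0.03 in NETs replicates 1 to 3, against −0.12, −0.40 and 0.11 in vehicle replicates 1 to 3. Vehicle replicate 2 held the lowest value of all 10 genes, NETs replicate 1 held the highest of 5, and 9 of 10 genes were above their mean in vehicle replicate 3. The order of these averages was also that of the 6 libraries on the first principal component of all genes tested, whose scores were −32.9, −11.9 and −0.177 in NETs replicates 1 to 3 and 16.5, 40.0 and −11.4 in vehicle replicates 1 to 3. Reads on mitochondrial genes made up 1.20%, 1.46% and 1.37% of NETs libraries and 1.71%, 1.67% and 1.6% of vehicle libraries. The part of this library order, of mitochondrial reads and of the markers of other cells in the enzyme differences was not tested.

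**Figure D2:**
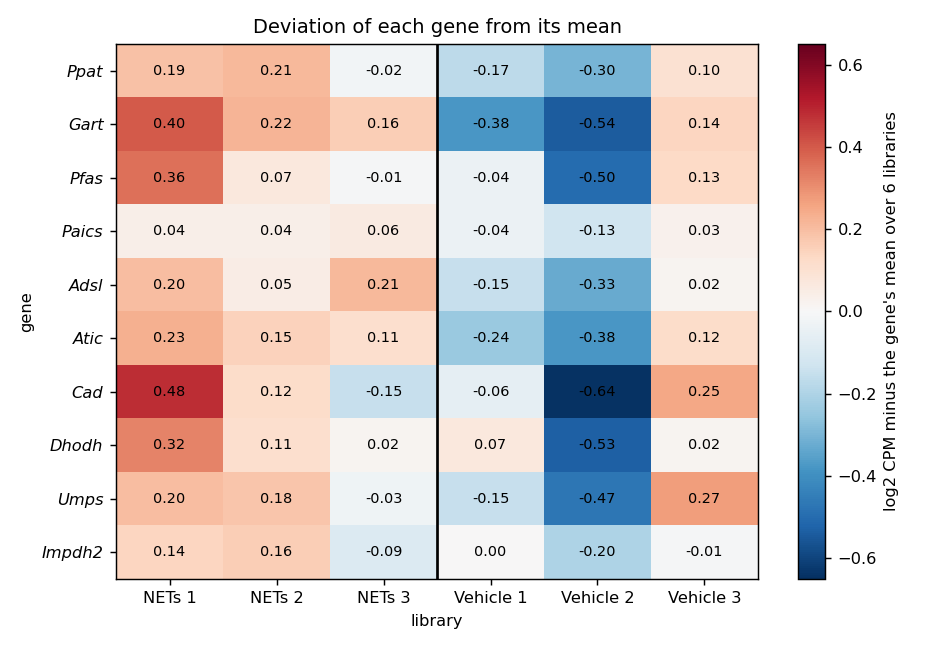
Log2 CPM of each gene (rows) in each library (columns) minus the gene's mean over the 6 libraries, with red for above and blue for below. The column of vehicle replicate 2 is blue in all rows, down to −0.64 for Cad, while the row of Paics stays between −0.13 and 0.06.

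The size of the difference depended on which vehicle library was kept. Without vehicle replicate 2, the median log2 fold change of the 10 genes was 0.11, with Cad at 0.07, Umps at 0.05, Pfas at 0.10, Dhodh at 0.11, Impdh2 at 0.07 and Paics at 0.05. Gart stood at 0.37, Adsl at 0.22, Atic at 0.21 and Ppat at 0.16, each also below its value with all 6 libraries. Without vehicle replicate 3, the median was 0.39. EdgeR called 2 of the 10 in that fit, Gart (0.73, adjusted p = 0.0153) and Atic (0.47, adjusted p = 0.0235), against 405 of 14391 genes tested. In that fit Cad stood at 0.50, Pfas at 0.40, Umps at 0.42 and Paics at 0.14. Without NETs replicate 1, the median was 0.18, with Cad at 0.10 and Pfas at 0.14. Without NETs replicate 3, Impdh2 stood at 0.21. With 1 library left out, all 10 genes kept a log2 fold change above 0 in each of the 6 fits.

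**Figure D3:**
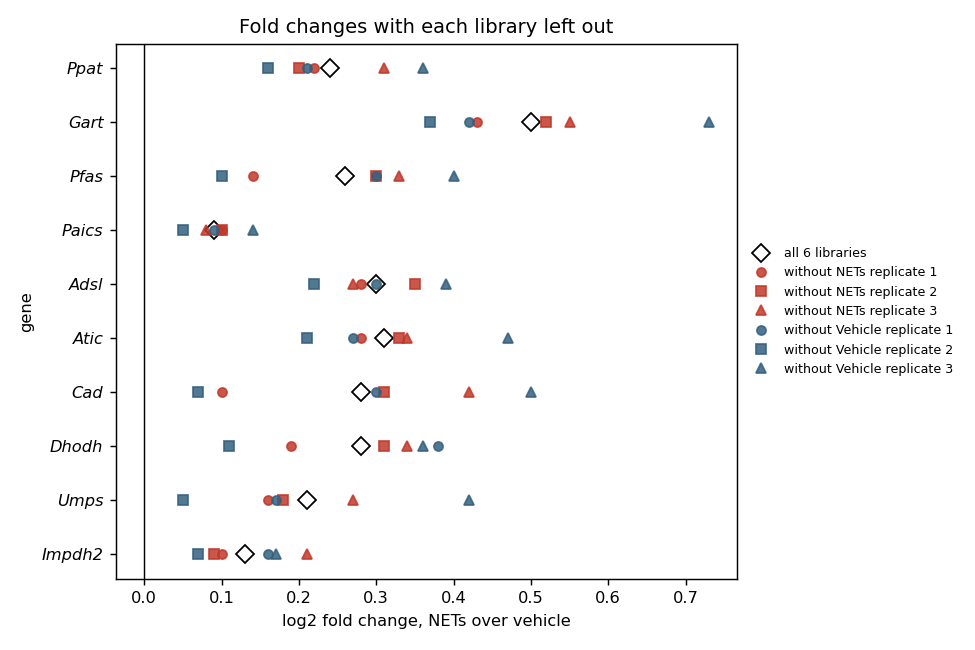
Log2 fold change (horizontal axis, NETs over vehicle) of each gene with all 6 libraries (open diamond) and with each library left out (filled markers, red for NETs and blue for vehicle). Leaving out vehicle replicate 2 gave the lowest value for all 10 genes, from 0.05 to 0.37, and leaving out vehicle replicate 3 gave the highest for 8 of them, up to 0.73 for Gart.

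Per length, Impdh2 and Paics exceeded the other 8 enzymes by far. In the authors' FPKM (reads scaled to library size and gene length), Impdh2 averaged 319 ± 32.0 with NETs and 293 ± 25.6 with vehicle, and Paics 209 ± 1.29 with NETs and 198 ± 13 with vehicle (SD, n = 3 each). Next came Gart, at 63.9 ± 5.87 FPKM with NETs and 45.6 ± 12 FPKM with vehicle, Adsl, at 59.6 ± 3.17 and 48.8 ± 6.25 FPKM, and Atic, at 59.2 ± 2.73 and 48.0 ± 9.07 FPKM. These 3 did not differ from each other beyond their spread. Cad averaged 39.9 ± 8.96 FPKM with NETs and 33.1 ± 10.1 FPKM with vehicle, and Pfas 30.5 ± 4.27 and 25.7 ± 5.74 FPKM. Cad was above Pfas in each of the 6 libraries. Ppat (20.8 ± 1.93 FPKM with NETs, 17.7 ± 2.65 FPKM with vehicle), Umps (18.2 ± 1.69 and 15.9 ± 4.24 FPKM) and Dhodh (14.8 ± 1.66 and 12.3 ± 2.76 FPKM) closed the order.

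That order rests on the length the authors divided by, which worked out at 802 bases for Impdh2 and 1408 for Gart, against deposited gene lengths of 3077 and 5144 bases. Divided by the deposited lengths instead, Paics led with 85.7 CPM per kilobase with NETs and 81.1 with vehicle. Impdh2 followed with 83.0 with NETs and 76.3 with vehicle. The other 8 lay between 3.05 (Dhodh) and 17.7 (Umps) with NETs and between 2.53 (Dhodh) and 15.5 (Umps) with vehicle. Dhodh was the lowest on both scales.

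Ppat and Paics lie head to head on opposite strands and overlap by 272 bases in the deposited coordinates, so that reads in the overlap cannot be told apart without knowledge of strand use. Their FPKM ratio (Ppat over Paics) was 0.104, 0.106 and 0.0887 in NETs libraries and 0.0861, 0.0836 and 0.0983 in vehicle libraries, with overlapping groups (two-sided exact permutation p = 0.2, 0.4 after Benjamini-Hochberg adjustment over 2 ratios; 3 against 3 cannot go below 0.1). The ratio of Impdh2 to Impdh1, the isozyme of the same step, was 3.71, 4.19 and 3.17 in NETs libraries and 4.0, 2.94 and 4.06 in vehicle libraries (exact permutation p = 1.0, adjusted p = 1.0). Impdh2 also overlaps Ndufaf3 by 48 bases, and its processed pseudogene on chromosome 8, Impdh2-ps, had 275 reads in all libraries together. Antisense genes that overlap Ppat, Gart and Umps had at most 25 reads in a library.

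The steps around the de novo enzymes were read from 9 lists of 84 genes, of which 72 were tested. Of these, 0 passed the adjusted threshold in either direction. At an unadjusted p under 0.05, 8 of the 72 were higher and 2 lower, against 6.72% and 6.06% of all genes tested. A log2 fold change above 0 was seen in 50 of the 72, against 50.2% of all genes tested, and the median was 0.11. DESeq2 called 1 of them, against 121 of all 13900 genes tested.

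Median differences were small for the supply of ribose phosphate and at the branch points. For phosphoribosyl pyrophosphate synthesis (4 genes) the median log2 fold change was 0.03, with Prps1 at 0.02, Prps2 at 0.05, Prpsap1 at −0.04 and Prpsap2 at 0.16. On the branches from IMP, Impdh1 was at 0.12, Gmps (GMP synthetase) at 0.11, Adss (adenylosuccinate synthetase) at −0.05 and the scarce Adssl1 at 0.34, a median of 0.11 over the 4 genes. Of the CTP synthases, Ctps was at 0.15 and Ctps2 at −0.03. In these 3 lists 0 genes had an unadjusted p under 0.05, against 6.72% higher and 6.06% lower of all genes tested. The intervals leave room for differences as large as those of the enzymes in some of these genes. The 95% interval ran from −0.14 to 0.23 for Prps2, from −0.16 to 0.48 for Prpsap2 and from −0.53 to 1.21 for Adssl1.

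Among nucleotide kinases the median was 0.26 over 13 genes tested, with 2 higher and 0 lower at an unadjusted p under 0.05, against the same 6.72% and 6.06%. Among these was Nme1, a nucleoside diphosphate kinase (log2 fold change 0.50, SE 0.18, adjusted p = 0.273), whose reads may be shared with the related Nme2. Ak6 stood at 0.41 and Guk1, the guanylate kinase, at 0.29. For salvage the median was 0.06 (11 genes tested), with 3 higher and 0 lower at that threshold (6.72% and 6.06% of all genes tested). Aprt, which recycles adenine, stood at 0.38 (SE 0.14, adjusted p = 0.276), with 64.7, 62.4 and 51.4 CPM in NETs libraries and 50.8, 35.6 and 51.8 CPM in vehicle libraries, where vehicle replicate 2 was again the lowest. Uck2, a uridine and cytidine kinase, stood at 0.21 and Tk1, the thymidine kinase of dividing cells, at 0.20, while Hprt, which recycles hypoxanthine and guanine, was at 0.16 and adenosine kinase Adk at −0.18.

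The 8 genes of deoxynucleotide and thymidylate synthesis had a median of 0.18, with 2 higher and 0 lower at an unadjusted p under 0.05, against 6.72% and 6.06% of all genes tested. The 2 were Dut, which removes dUTP (0.25), and thymidylate kinase Dtymk (0.23). Rrm2, the small subunit of ribonucleotide reductase, stood at 0.17 and its p53-induced counterpart Rrm2b at −0.40, with Rrm2b at 32.0 CPM in vehicle replicate 2 and 16.1 to 20.6 CPM in the other 5 libraries. Over 18 genes of nucleotide breakdown the median was 0.07, with 1 higher (against 6.72% of all genes tested) and 2 lower (against 6.06%). Itpa, which clears inosine triphosphate, was at 0.37 (adjusted p = 0.249), Samhd1, which breaks down deoxynucleotide triphosphates, at −0.36 (adjusted p = 0.265), xanthine dehydrogenase Xdh at −0.36 (adjusted p = 0.326) and Pnp, the purine nucleoside phosphorylase, at 0.32. Samhd1 had 819, 879 and 992 CPM with NETs and 1107, 1383 and 979 CPM with vehicle, with its highest value in vehicle replicate 2, where the de novo enzymes were lowest.

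The folate enzymes that supply formate and glycine to the purine ring had a median of 0.27 over 7 genes tested. Of these, 0 were higher and 0 lower at an unadjusted p under 0.05, against 6.72% and 6.06% of all genes tested. Mthfd1 stood at 0.34 (SE 0.22), Shmt1 at 0.28, Shmt2 at 0.27 and Mthfd1l at 0.26. The 5 genes of the last list, regulators known from other work, lay between −0.21 and 0.03. Myc and Mtor, the drivers named above, were among them. Myc had 122, 129.5 and 128 CPM with NETs and 130.1, 145 and 143 CPM with vehicle (log2 fold change −0.12, SE 0.08, adjusted p = 0.551). Its NETs libraries all lay below its vehicle libraries by a small gap, as in 9.04% of all genes tested. Over the 72 list genes tested, 2 lay so. A further 5 had all NETs libraries above all vehicle libraries, against 7.68% of all genes tested. Atf4 stood at −0.21 (adjusted p = 0.415), Mtor at −0.02, Rps6kb1 at −0.01 and Tfam at 0.03. The list of 5 had a median of −0.02.

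**Figure D4:**
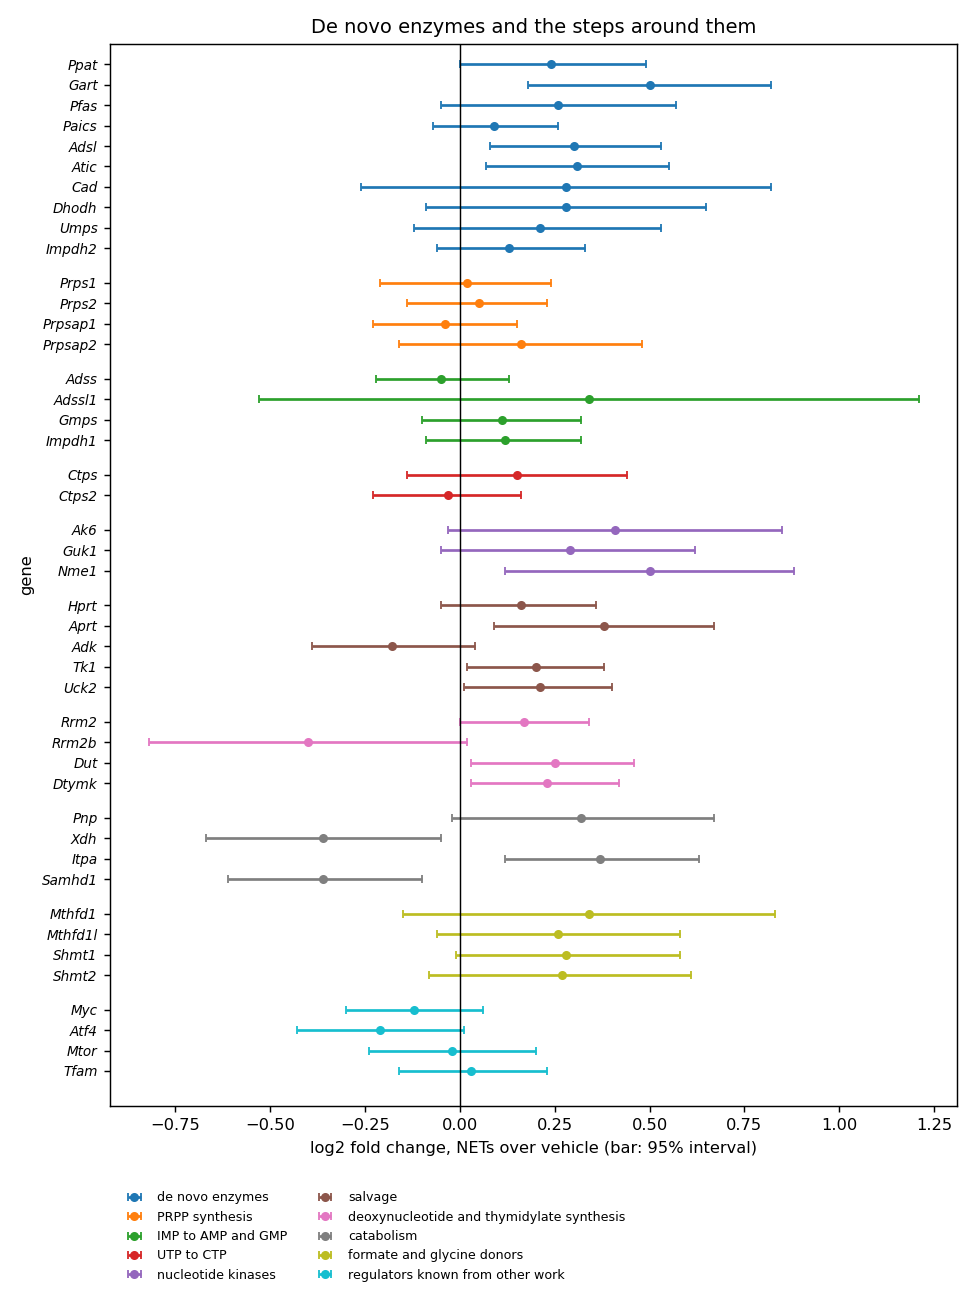
Log2 fold change (horizontal axis, NETs over vehicle) with its 95% interval for the 10 de novo enzymes and for genes of 9 lists around them, coloured by list. The de novo enzymes lie between 0.09 and 0.50, the genes of phosphoribosyl pyrophosphate synthesis between −0.04 and 0.16, and Samhd1 and Xdh at −0.36.

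The genes whose pattern over the 6 libraries was most like the average of the 10 enzymes were sought among 7414 other genes with at least 20 CPM, by the root-mean-square difference of centred log2 CPM. They were Pspc1, a paraspeckle protein (0.0244), Fasn, the fatty acid synthase (0.0297), Parp1, a DNA break sensor (0.0341), Xpnpep1, an aminopeptidase (0.0381), Uhrf1, a factor of DNA methylation upkeep (0.0392), and Ei24, an endoplasmic reticulum protein (0.0427), where the median gene differed by 0.230. Since they were picked by this pattern, fold changes near those of the enzymes follow from the search. Their log2 fold changes were 0.24, 0.26, 0.22, 0.25, 0.32 and 0.26, none past the threshold (adjusted p from 0.262 to 0.449). Among the enzymes themselves, Atic (0.0623) and Ppat (0.0669) were nearest to the average and Cad (0.165) the farthest.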

How the data were processed

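The authors deposited raw read counts per Ensembl gene for 54532 genes in 6 libraries, in 2 tables with identical values, and FPKM values. Per the submitters' processing notes, STAR and DESeq2 were used and the build was mm9; the labels name no versions, counting program or strand setting. Gene coordinates in the deposited tables equalled those of the GRCm38 annotation for 98.3% of shared genes and all 10 enzymes, so they are given as GRCm38. The authors also deposited a length for each gene, in bases.

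Genes kept by edgeR's filterByExpr (13900) were tested in R 4.3.3 by edgeR 4.0.16 after TMM scaling (quasi-likelihood, robust, two-sided, group as the only term, Benjamini-Hochberg adjustment, threshold 0.05). The test was checked on simulated data. SE is the absolute log2 fold change over the square root of F. CPM uses library totals; centred log2 CPM uses TMM-scaled totals and a prior count of 2. With 3 libraries a group, the median SE of a log2 fold change was 0.146 over all genes tested, and the common biological coefficient of variation was 0.134.

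The 10 enzymes and the lists were chosen with earlier results of these data known. Named genes were the 10 enzymes, up to 4 genes with the smallest p of each list, Impdh1, Ctps, Prps1, Prps2, Gmps, Hprt and Myc, and the 6 genes most alike in pattern; 1 gene of the lists is counted but not reported here. The 2 ratios, and the remaining members of lists that are named, were chosen after values were seen. Alternatives were other scaling, filters, DESeq2 1.42.0, limma 3.58.1 (voom, and trend on log2 of FPKM plus 1 or 0.1), a replicate block and leaving out each library.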

Additional observations from a re-analysis of the deposited data

How the results depend on the processing

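All 10 enzymes kept a log2 fold change above 0 under all 15 alternatives, and their median lay between 0.11 (without vehicle replicate 2) and 0.39 (without vehicle replicate 3), against 0.27. Adjusted-threshold calls were 0 over all genes, over the 10 enzymes and over the surrounding lists in the fit reported, and 0 in all 3 with other scaling or a mean CPM of at least 5. When all genes with reads were kept, 322 of 24780 genes tested passed in edgeR (192 higher and 130 lower). Among them were 1 enzyme (Gart, adjusted p = 0.000937) and 2 list genes (Samhd1 among them). DESeq2 called 121 genes (55 higher, 66 lower), 0 enzymes and 1 list gene, with Gart at an adjusted p of 0.0599. Limma-voom called 1 gene (S100a9), and FPKM with a pseudocount of 1 or 0.1 called 2 each (S100a9 and Gm24270), with 0 enzymes and 0 list genes. With 1 library left out, calls ranged from 0 to 405 over all genes, from 0 to 2 over the enzymes and from 0 to 3 over the lists (Samhd1 and Shmt2 among them), each highest without vehicle replicate 3. The cause was not tested. Over its alternatives, Gart's adjusted p ranged from 0.000937 to 0.812 and Atic's from 0.0235 to 0.812.

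Same-numbered NETs and vehicle libraries had deviations from their group means that correlated at −0.0254, −0.0596 and −0.175 over genes. No library correlated best with its own number. The best pairs were NETs replicate 3 with vehicle replicate 2 (0.223), 1 with 3 (0.204) and 2 with 1 (0.0912). Deviations from a mean of 3 libraries sum to 0 within each group, so these values cannot decide whether libraries share an animal or batch. With the replicate block, edgeR called 0 genes (smallest adjusted p = 0.427), and 3 of the 10 enzymes were higher and 0 lower at an unadjusted p under 0.05, against 715 higher and 622 lower of all 13900 genes tested.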
